A study of Mus musculus with 16 samples.

Results

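The 39 genes described here belong to the ATF4 arm of the integrated stress response and to the amino acid supply that ATF4 serves. They were taken from a fixed list of gene symbols, and all 39 were matched among the 49585 genes of the count table through their Ensembl identifiers. The list holds 5 transcription factors, 6 stress effectors and feedback genes, 5 enzymes of serine and one-carbon metabolism, 5 other amino acid enzymes, 7 amino acid transporters and 11 cytosolic tRNA synthetases. The rule names genes by function and uses no measured value, but the list was chosen with earlier results of these data known. All 39 genes passed the filter on low counts.

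In the integrated stress response, kinases that sense unfolded protein, missing amino acids, viral RNA or lack of haem phosphorylate the translation factor eIF2. General protein synthesis then slows while the mRNA of Atf4 is translated better, and the ATF4 protein turns on genes that make, import and charge amino acids. ATF4 binds many of these genes together with a C/EBP protein at a composite site called the C/EBP-ATF response element. Intestinal epithelial cells secrete large amounts of protein and turn over quickly, and stress of the endoplasmic reticulum is a well-known feature of inflamed intestine. The files hold RNA, so ATF4 protein and phosphorylated eIF2 were not measured here.

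RNA was sequenced from small intestinal organoids, which are epithelial crypts grown in Matrigel. The control genotype, Atg16l1 fl/fl (labelled WT), carries floxed alleles of the autophagy gene Atg16l1 without Cre, and Atg16l1 ΔIEC (labelled KO, Atg16l1dIEC) carries the same floxed alleles with Villin-Cre, which deletes the gene in intestinal epithelial cells. The study's mice were 8 to 12 weeks old. Organoids were left untreated or given the cytokine IL-22 at 10 ng/ml for 24 h, and each of the 4 groups had 4 cultures. The labels number 2 organoid lines per genotype (1293 and 1294 for fl/fl, 1290 and 1292 for ΔIEC) with 2 cultures per line and treatment. Cultures 1 and 2 of a group are the first line and cultures 3 and 4 the second. The p-values therefore measure the spread between cultures of 2 lines, and a difference between genotypes cannot be told apart from a difference between the 2 pairs of lines. In bulk RNA, fewer cells of a type and less RNA per cell cannot be told apart.

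Counts on genes added up to 2135000 at the shallowest and 5574860 at the deepest culture, and the lowest count of any of the 39 genes in any culture was 55. Atg16l1 itself had 31.6 to 51.8 CPM (reads scaled to 1000000 on genes) in fl/fl cultures and 0.289 to 5.96 CPM in ΔIEC cultures, so the groups did not overlap. Epithelial markers summed to 5760 to 10600 CPM, while the summed markers of immune cells stayed at or under 4.19 CPM and those of stromal cells at or under 3.63 CPM. The first and second IL-22–treated ΔIEC cultures, partners of 1 line, differed from each other with a chi-square per gene of 7.35, against 1.35 to 3.42 in the other 7 such pairs. That value does not show which culture of the pair is unusual. Atg16l1 had 2 counts in the first and 21 in the second. The first culture was the lowest of its group for 20 of the 39 genes, and the third culture of that group was the highest for 23. Among untreated ΔIEC cultures the first was the lowest for 22 genes and the fourth the highest for 19, so these counts do not single out 1 culture. Values without treated ΔIEC culture 1 or 3 are given below for some of the genes they moved, and not for all.

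Promoter windows of RefSeq (mouse build GRCm38.p6), which run from 250 bases before to 50 bases after the annotated start, were at hand for 31 of the 39 genes. The response element was searched on both strands as TGATGNAA, where N is any base. It was present in the windows of 12 of the 31 genes (38.7%) and in 4.51% of all 27025 genes with a window. With the element spelled in full as TGATGCAA the shares were 29.0% and 1.03%. Windows around the element are shown for 6 genes that rose after IL-22 in at least 1 genotype and for 2 with the same letters, Slc1a4 and Pycr1, that did not rise. Each is read 5′ to 3′ on the gene's own strand, with the element in capitals. Where the capitals end in CATCA, the element lies on the opposite strand.
Atf3 (chr1:191183410-191183469, reverse strand): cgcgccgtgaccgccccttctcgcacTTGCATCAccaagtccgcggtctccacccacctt
Chac1 (chr2:119351023-119351082, forward strand): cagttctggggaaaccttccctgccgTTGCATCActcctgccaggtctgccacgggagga
Trib3 (chr2:152344031-152344072, reverse strand): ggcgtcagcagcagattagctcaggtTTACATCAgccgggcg
Asns (chr6:7693199-7693258, reverse strand): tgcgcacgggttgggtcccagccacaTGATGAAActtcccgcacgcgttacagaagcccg
Slc7a11 (chr3:50443627-50443705, reverse strand): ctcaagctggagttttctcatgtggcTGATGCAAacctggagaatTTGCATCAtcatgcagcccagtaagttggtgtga
Tars (chr15:11399640-11399699, reverse strand): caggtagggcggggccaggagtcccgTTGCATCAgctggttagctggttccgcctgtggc
Slc1a4 (chr11:20332684-20332743, reverse strand): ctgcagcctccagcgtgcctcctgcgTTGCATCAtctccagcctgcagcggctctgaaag
Pycr1 (chr11:120643818-120643877, reverse strand): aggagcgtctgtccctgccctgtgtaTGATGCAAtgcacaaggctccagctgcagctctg

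The Slc7a11 window held the full element 2 times, beginning 66 and 47 bases before the start, once on each strand. In Asns the element began 23 bases before the start and in Tars 15 bases before it, whereas in Trib3 it lay just after the RefSeq start. In the GENCODE M21 annotation Trib3 begins at base 152344032 on the reverse strand, and the same letters lie before that start. The same letters stood in the windows of Aars (2 matches), Gars, Iars and Yars. Of the 7 listed tRNA synthetases with a window, 5 held the element, against 0 of 5 other cytosolic synthetases and 0 of 14 mitochondrial ones. A match describes these letters only, and binding was not measured here.

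IL-22 raised most of these genes in both genotypes. In fl/fl organoids 29 of the 39 genes rose past an adjusted p of 0.01 and 1 fell, together 76.9% of them, where 10.6% of all 12559 tested genes rose and 10.2% fell, 20.8% in all. In ΔIEC organoids 26 rose and 1 fell, 69.2% of the genes, against 9.83% and 7.65% of all tested genes, 17.5% in all. The median log2 fold change of the 39 genes was 0.40 in fl/fl and 0.42 in ΔIEC organoids, and the medians over all tested genes were -0.046 and -0.0073. With the counts of each line's 2 cultures summed, which leaves 2 samples a group, 10 of the 39 rose in fl/fl and 9 in ΔIEC organoids. Of all 13871 genes tested so, 356 and 385 rose. Without fl/fl line 1294, 17 of the 39 rose in fl/fl organoids, where 590 of all 12785 tested genes did. Without ΔIEC line 1292, 11 of the 39 rose in ΔIEC organoids, where 495 of all 12937 did. Without line 1290 it was 17, where 708 of all 12876 rose. With all cultures, the same 25 of the 39 genes rose in both genotypes. Atf3, Eprs, Iars and Slc1a5 passed the threshold in fl/fl organoids alone and Shmt2 in ΔIEC organoids alone, with no difference between the genotypes' effects past the threshold for any of them. Cebpg, Ddit3, Ddit4, Gpt2, Mars, Phgdh and Pycr1 passed it in neither.

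**Figure D1:**
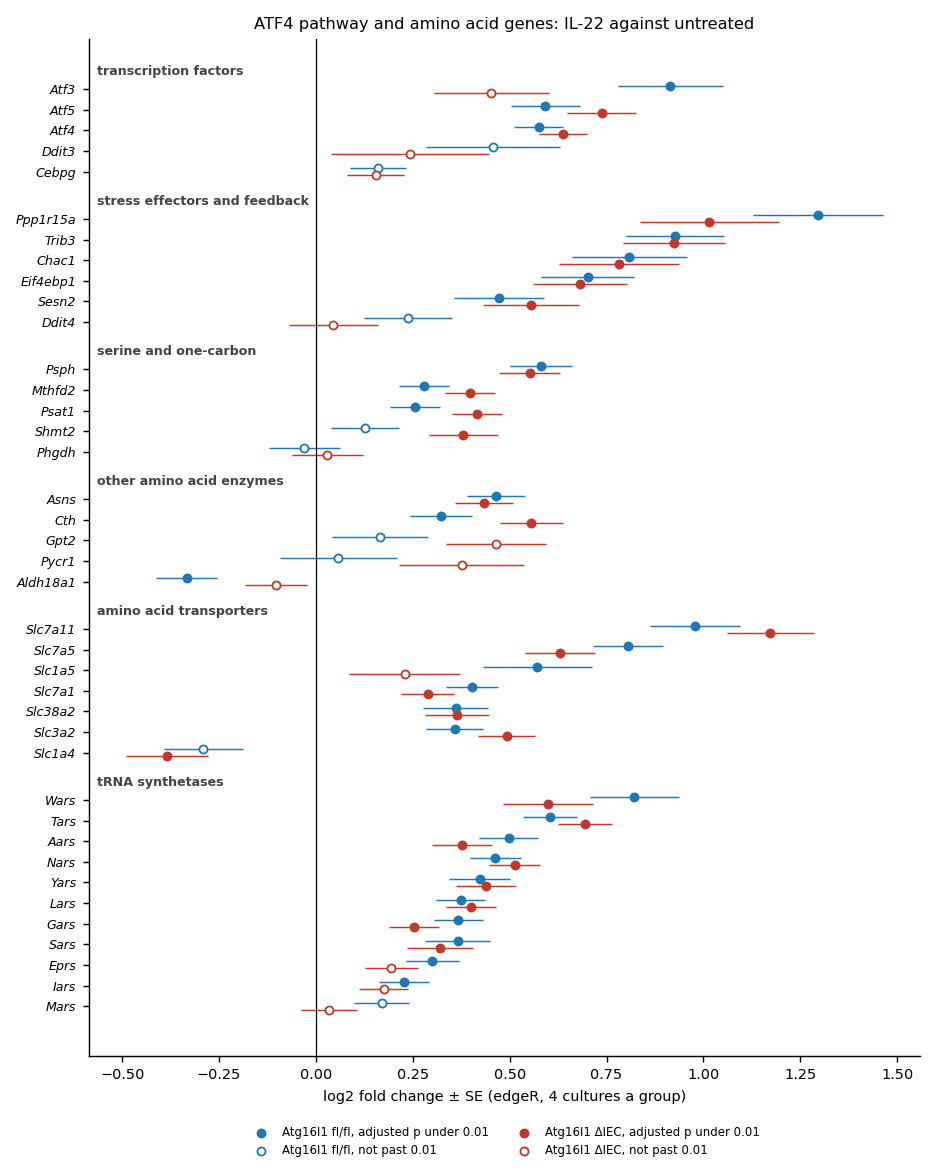
Log2 fold change of IL-22–treated over untreated organoids for the 39 genes, grouped by role, with bars of 1 SE from edgeR (4 cultures a group). Blue is Atg16l1 fl/fl, red is Atg16l1 ΔIEC, and filled points passed an adjusted p of 0.01. Most points lie right of 0, from 0.23 (Iars) to 1.30 (Ppp1r15a) among the genes that rose in fl/fl organoids, while Aldh18a1 and Slc1a4 lie left of 0 in both genotypes.

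The IL-22 effects were seen line by line as well. For 33 of the 39 genes the mean of the 2 treated cultures was above the mean of the 2 untreated ones in each of the 4 lines, and for Aldh18a1 and Slc1a4 it was below in each. How many of all tested genes kept 1 sign over the 4 lines was not counted, so these numbers have no share to be set against. The median difference over the 39 genes was 0.38 and 0.42 log2 CPM in the fl/fl lines 1293 and 1294, and 0.41 and 0.46 in the ΔIEC lines 1290 and 1292. Every treated culture lay above all untreated ones for 32 genes in fl/fl organoids, where 15.4% of all tested genes did so, and for 27 in ΔIEC organoids, where 14.1% did. Marker lists of cell types moved with the treatment too. The summed enterocyte markers ranged from 2570 to 3040 CPM in untreated and from 728 to 1200 CPM in treated fl/fl cultures, with 4 of 5 markers lower, and from 2600 to 2940 and 860 to 1220 CPM in ΔIEC cultures, with 2 of 5 lower. Stem cell markers were lower for 2 of 5 and 4 of 5, and proliferation markers for 5 of 6 and 2 of 6. Of 7 general epithelial markers 4 were higher in fl/fl and 1 in ΔIEC organoids, of 6 goblet cell markers 3 were higher in fl/fl and 2 higher and 2 lower in ΔIEC organoids, and of 5 Paneth cell markers 1 was higher in each. Their part in the IL-22 effects on these genes was not tested.

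**Figure D2:**
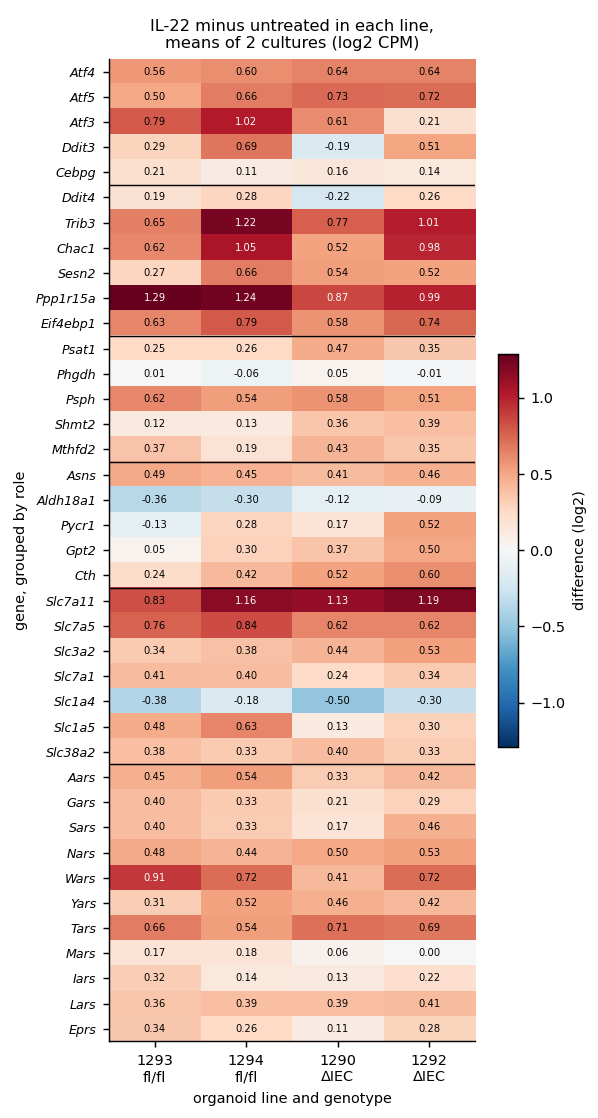
Difference between IL-22–treated and untreated organoids in each of the 4 lines, as the mean log2 CPM of 2 treated cultures minus that of 2 untreated cultures, for the 39 genes in rows grouped by role (black lines). Red is higher after IL-22 and blue is lower. Values run from -0.50 (Slc1a4 in line 1290) to 1.29 (Ppp1r15a in line 1293), and Phgdh and Mars stay near 0 in the ΔIEC lines.

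Among the transcription factors, Atf4 and its relative Atf5 rose alike in both genotypes. Atf4 had 446, 396, 387 and 404 CPM in the 4 untreated fl/fl cultures and 623, 612, 609.9 and 588 CPM after IL-22. In ΔIEC cultures it had 386, 372, 383 and 397 CPM untreated and 583, 596, 623 and 591 CPM with IL-22. No treated culture reached down to an untreated one, and the log2 fold change was 0.57 ± 0.062, adjusted p = 1.06e-06, in fl/fl and 0.64 ± 0.063, adjusted p = 2.42e-07, in ΔIEC organoids, or 1.49-fold and 1.56-fold. Atf5, also translated under eIF2 phosphorylation, went from 134, 143, 143 and 154 to 184, 209, 222 and 249.6 CPM in fl/fl and from 124, 132, 138 and 127 to 191, 237, 224 and 213 CPM in ΔIEC cultures. Its log2 fold changes were 0.59 ± 0.089, adjusted p = 4.21e-05, and 0.74 ± 0.09, adjusted p = 3.66e-06. Atf5 shares 82 exon bases (4.11%) with Nup62 on the other strand. Atf4 and Atf5 kept both calls under every alternative setting that was run.

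Atf3, a stress-induced factor of the same family, had 30.1, 24.5, 26.3 and 24.1 CPM in untreated and 50.7, 44.2, 50.9 and 52.1 CPM in treated fl/fl cultures. In ΔIEC cultures the values were 16.7, 18.9, 22.1 and 27.0 CPM and 24.7, 30.7, 33.8 and 23.7 CPM. The fl/fl groups were well apart (log2 fold change 0.91 ± 0.14, adjusted p = 3.56e-05), whereas the ΔIEC groups overlapped and did not pass the threshold (0.45 ± 0.15, adjusted p = 0.0282). The difference between the genotypes' effects was -0.46 ± 0.20, adjusted p = 0.628, the lowest adjusted p of the 39 genes for that comparison, and so it did not pass either.

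Ddit3 encodes CHOP, which acts below ATF4 and can promote cell death. It had 61.9, 62.5, 40.3 and 53.0 CPM in untreated and 78.0, 74.6, 74.3 and 76.1 CPM in treated fl/fl cultures, and 23.3, 32.5, 27.3 and 28.7 and 23.5, 24.7, 52.6 and 30.4 CPM in ΔIEC cultures. Treated fl/fl cultures lay above the untreated ones, yet the log2 fold change of 0.46 ± 0.17, adjusted p = 0.0489, missed the threshold. With the line as a block it was 0.46 ± 0.13 with an adjusted p of 0.00357 and passed, and with each line's cultures summed it was 0.45 with an adjusted p of 0.195. In ΔIEC organoids the effect was 0.24 ± 0.20, adjusted p = 0.413, and turned to -0.083 without the third treated culture, the one at 52.6 CPM. Cebpg, the C/EBP protein that pairs with ATF4, had 0.16 and 0.15 with adjusted p-values of 0.0983 and 0.129.

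The stress effectors held the largest IL-22 effect of the 39 genes. Ppp1r15a encodes GADD34, which directs a phosphatase to eIF2 and so restores translation. It had 31.0, 24.2, 30.8 and 24.1 CPM in untreated and 64.5, 71.0, 72.1 and 59.0 CPM in treated fl/fl cultures, and 17.7, 20.2, 26.9 and 25.8 and 32.0, 38.1, 62.9 and 44.6 CPM in ΔIEC cultures. The groups did not overlap in either genotype, and the log2 fold changes of 1.30 ± 0.17, adjusted p = 8.4e-06, and 1.01 ± 0.18, adjusted p = 0.000239, are 2.45-fold and 2.02-fold. Trib3, a pseudokinase that restrains ATF4, had 89.7, 86.5, 63.5 and 73.3 and 129, 148, 167 and 152 CPM in fl/fl cultures and 55.6, 62.3, 62.3 and 70.2 and 88.3, 114, 139 and 129 CPM in ΔIEC cultures. Its effects of 0.93 ± 0.13, adjusted p = 1.61e-05, and 0.92 ± 0.13, adjusted p = 2.24e-05, were nearly equal in size.

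Chac1, which degrades glutathione, went from 73.6, 74.3, 50.3 and 52.4 to 114, 115, 112 and 102 CPM in fl/fl and from 41.3, 58.1, 46.6 and 54.4 to 61.6, 80.4, 105 and 95.2 CPM in ΔIEC cultures. Treated cultures lay above untreated ones in both genotypes (log2 fold change 0.81 ± 0.15, adjusted p = 0.000326, and 0.78 ± 0.15, adjusted p = 0.000699). Eif4ebp1, a repressor of cap-dependent translation, rose by 0.70 ± 0.12 and 0.68 ± 0.12 on the log2 scale, and Sesn2, a leucine sensor that holds back mTORC1, by 0.47 ± 0.12 and 0.55 ± 0.12. Ddit4, another inhibitor of mTORC1, had 491, 507, 473 and 523 CPM in untreated and 590.3, 552, 643 and 567 CPM in treated fl/fl cultures, and 363, 406, 377 and 434 and 316, 343, 512 and 455 CPM in ΔIEC cultures. It passed the threshold in neither genotype (0.24 ± 0.11, adjusted p = 0.121, and 0.044 ± 0.12, adjusted p = 0.821). The first and the third treated ΔIEC cultures were the lowest and the highest for Ppp1r15a, Trib3, Chac1 and Ddit4, and without the first the ΔIEC effects of Ppp1r15a, Trib3 and Chac1 were 1.13, 1.04 and 0.90, without the third 0.80, 0.84 and 0.67, all past the threshold.

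**Figure D3:**
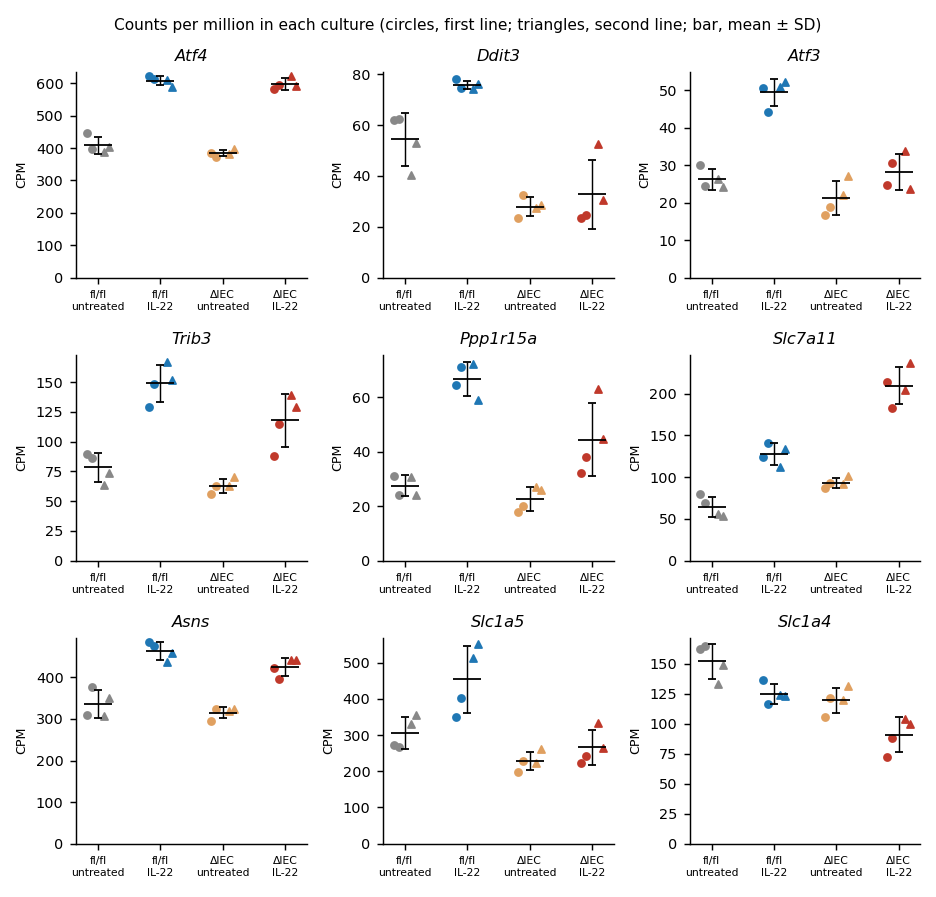
CPM of 9 of the 39 genes in each of the 16 cultures, with the y axis of each panel starting at 0. Circles are the first and triangles the second line of a genotype, and the black bar is the mean ± SD of 4 cultures. The treated Atf4 cultures lie above the untreated ones, the ΔIEC Ddit3 cultures lie below the fl/fl cultures of the same treatment, and Slc7a11 is highest in IL-22–treated ΔIEC cultures at 183 to 237 CPM.

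Serine is made by Phgdh, Psat1 and Psph in turn, and IL-22 raised the last 2 of these in both genotypes. Psat1 had 277, 298, 300.1 and 317 CPM in untreated and 341, 345, 367 and 372 CPM in treated fl/fl cultures, and 348, 342, 368 and 369 and 472, 487, 455 and 487 CPM in ΔIEC cultures. Psph had 57.0, 57.7, 58.5 and 53.0 and 89.5, 86.9, 74.9 and 87.5 CPM in fl/fl cultures and 76.2, 74.1, 74.4 and 74.3 and 105, 121, 108 and 104 CPM in ΔIEC cultures. Both rose without overlap in each genotype, Psat1 by 0.26 ± 0.065, adjusted p = 0.00458, and 0.41 ± 0.064, adjusted p = 5.92e-05, and Psph by 0.58 ± 0.08, adjusted p = 1.68e-05, and 0.55 ± 0.078, adjusted p = 2.08e-05. Phgdh, which catalyses the first and committed step, had 193, 191, 168 and 192 CPM in untreated and 197, 189, 182 and 163 CPM in treated fl/fl cultures, and 196, 202, 216 and 240.1 and 179, 236, 222 and 231 CPM in ΔIEC cultures. Its groups overlapped, with log2 fold changes of -0.03 ± 0.092 and 0.029 ± 0.092. Psph shares 10.4% of its exon bases with Cct6a on the other strand, and the strand setting of the counting is not given in the sources used here.

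The mitochondrial one-carbon enzyme Mthfd2 rose by 0.28 ± 0.064, adjusted p = 0.00235, in fl/fl and 0.40 ± 0.065, adjusted p = 9.95e-05, in ΔIEC organoids. Shmt2, which feeds it with one-carbon units from serine, passed the threshold in ΔIEC organoids (0.38 ± 0.089, adjusted p = 0.00303) and not in fl/fl organoids (0.13 ± 0.088, adjusted p = 0.298), and the difference between these effects did not pass (0.25 ± 0.13, adjusted p = 0.701). Of 10 other tested enzymes of folate metabolism, 5 passed the threshold in fl/fl organoids and all of these fell, among them Tyms, the thymidylate synthase (-0.90 ± 0.18). In ΔIEC organoids 1 rose (Mthfd2l, 0.84 ± 0.22) and 2 fell, with Shmt1 at -0.60 ± 0.091.

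The remaining amino acid enzymes were mixed. Asns, which makes asparagine, had 309, 378, 307 and 350.4 CPM in untreated and 486, 476, 437 and 459 CPM in treated fl/fl cultures, and 294, 323, 319 and 325 and 422, 397, 443 and 441 CPM in ΔIEC cultures. Cth, which makes cysteine from cystathionine, had 303, 333, 269 and 279 and 388, 362, 365 and 368 CPM in fl/fl cultures and 243, 251, 211 and 219 and 375, 336, 334 and 316 CPM in ΔIEC cultures. Both rose in both genotypes with no overlap of groups, Asns by 0.46 ± 0.075, adjusted p = 9.37e-05, and 0.43 ± 0.076, adjusted p = 0.000207, and Cth by 0.32 ± 0.08, adjusted p = 0.00409, and 0.56 ± 0.081, adjusted p = 2.91e-05. Aldh18a1, which starts proline synthesis from glutamate, had 468, 472, 451 and 491 CPM in untreated and 371, 361, 373 and 389 CPM in treated fl/fl cultures, and 315, 345, 319 and 289 and 273, 336, 312 and 260.2 CPM in ΔIEC cultures. It was the only one of the 39 genes to fall in fl/fl organoids (-0.33 ± 0.079, adjusted p = 0.00297), and its ΔIEC groups overlapped (-0.10 ± 0.08, adjusted p = 0.378). Leaving out treated culture 2 or untreated culture 4 ended that call, with adjusted p-values of 0.0109 to 0.012.

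Pycr1, which completes proline synthesis, had 0.058 ± 0.15 and 0.38 ± 0.16. Gpt2, the mitochondrial alanine transaminase, had 80.6, 77.6, 61.2 and 65.5 and 72.9, 91.6, 74.9 and 81.2 CPM in untreated and treated fl/fl cultures and 44.1, 47.5, 52.3 and 58.6 and 61.2, 57.7, 85.2 and 72.1 CPM in ΔIEC cultures. Its groups overlapped in both genotypes, with effects of 0.17 ± 0.12, adjusted p = 0.329, and 0.46 ± 0.13, adjusted p = 0.0108. With the line as a block the ΔIEC effect of Gpt2 was 0.44 ± 0.094 with an adjusted p of 0.000402 and passed, and with each line's cultures summed it was 0.46 with an adjusted p of 0.125.

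Of the 7 amino acid transporters, 6 rose in fl/fl and 5 in ΔIEC organoids. Slc7a11, the light chain of the exchanger that imports cystine against glutamate, had 79.5, 69.4, 55.8 and 53.2 CPM in untreated and 124, 141, 112 and 134 CPM in treated fl/fl cultures. In ΔIEC cultures it had 87.5, 92.5, 91.3 and 102 CPM untreated and 214, 183, 205 and 237 CPM treated. Each treated culture lay above each untreated one of its genotype, at log2 fold changes of 0.98 ± 0.12, adjusted p = 3e-06, and 1.17 ± 0.11, adjusted p = 1.77e-07, and the ΔIEC effect was the largest of the 39 genes there. Slc3a2, the heavy chain that Slc7a11 and Slc7a5 share, rose by 0.36 ± 0.073 and 0.49 ± 0.074, and Slc7a5, the light chain of the leucine importer LAT1, by 0.80 ± 0.09 and 0.63 ± 0.09. The cationic amino acid carrier Slc7a1 rose by 0.40 ± 0.068 and 0.29 ± 0.068, and Slc38a2, a sodium-coupled neutral amino acid carrier, by 0.36 ± 0.083 and 0.36 ± 0.083.

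The related neutral amino acid exchangers Slc1a4 and Slc1a5 differed in the sign of their effects. Slc1a5, the glutamine carrier ASCT2, had 273, 266, 330.5 and 355 and 351, 402, 512 and 551 CPM in fl/fl cultures and 199, 228, 224 and 260.0 and 224, 241, 334 and 265 CPM in ΔIEC cultures. Slc1a4, the serine and alanine carrier ASCT1, had 162, 165, 133 and 149 and 136, 117, 124 and 123 CPM in fl/fl cultures and 105, 121, 119 and 132 and 72.1, 87.8, 104 and 99.5 CPM in ΔIEC cultures. Slc1a5 rose in fl/fl organoids (0.57 ± 0.14, adjusted p = 0.00398), where the second line was the higher one under both treatments and the groups overlapped across lines, and it did not pass in ΔIEC organoids (0.23 ± 0.14, adjusted p = 0.259). Slc1a4 had a negative value in both genotypes and passed in ΔIEC organoids alone (-0.38 ± 0.11, adjusted p = 0.0095, against -0.29 ± 0.10, adjusted p = 0.0336 in fl/fl), and without the first treated ΔIEC culture the ΔIEC value was -0.29 with an adjusted p of 0.0287. The call was also lost without treated culture 2 or 4 or untreated culture 2, 3 or 4, at adjusted p-values of 0.011 to 0.0361. With the line as a block the fl/fl value of -0.29 ± 0.076 passed, with an adjusted p of 0.00262, and with each line's cultures summed it was -0.31 with an adjusted p of 0.155.

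The tRNA synthetases, which load amino acids onto tRNAs, mostly rose: 10 of 11 passed in fl/fl organoids at a median of 0.37, and 8 of 11 in ΔIEC organoids at 0.38. Wars, the tryptophan enzyme, had 124, 118, 119.7 and 121 CPM in untreated and 219.7, 237, 195 and 202 CPM in treated fl/fl cultures, and 112, 109.5, 128 and 118 and 133, 165, 227 and 181 CPM in ΔIEC cultures. Tars, the threonine enzyme, had 198, 185, 189 and 192 and 295, 310.1, 271 and 283 CPM in fl/fl cultures and 224, 244, 236 and 206 and 395, 369.5, 359 and 352 CPM in ΔIEC cultures. Neither gene's groups overlapped, and the effects were 0.82 ± 0.11, adjusted p = 1.83e-05, and 0.60 ± 0.12, adjusted p = 0.000544, for Wars and 0.60 ± 0.07, adjusted p = 2.35e-06, and 0.69 ± 0.07, adjusted p = 3.2e-07, for Tars. The 6 others that rose in both genotypes, Aars, Gars, Sars, Nars, Yars and Lars, had log2 fold changes between 0.37 (Sars) and 0.50 (Aars) in fl/fl and between 0.25 (Gars) and 0.51 (Nars) in ΔIEC organoids. Eprs and Iars passed in fl/fl organoids alone (0.30 ± 0.068 and 0.23 ± 0.063), and Mars, the methionine enzyme, in neither (0.17 ± 0.072 and 0.034 ± 0.072).

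Synthetases outside the list gave fewer calls. Of 9 other cytosolic ones, 2 rose in fl/fl organoids, Rars (0.60 ± 0.066) and Cars (0.37 ± 0.079), where 10.6% of all tested genes rose. In ΔIEC organoids 1 rose, Rars again (0.77 ± 0.066), where 9.83% of all tested genes did. The listed ones were chosen with earlier results of these data known, and the difference between listed and other synthetases was not tested. The medians over 17 mitochondrial synthetases were -0.26 in fl/fl and -0.18 in ΔIEC organoids.

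Without any 1 culture, 20 of the 30 calls in fl/fl and 20 of the 27 in ΔIEC organoids were kept. In fl/fl organoids Iars lost its call without any 1 culture but untreated culture 4 (adjusted p up to 0.0375), Psat1 without untreated culture 1, 2 or 3 or treated culture 3 or 4 (up to 0.0197), Sesn2 without culture 3 or 4 of either group (up to 0.0171), and Slc1a5 without untreated culture 1 or 2 or treated culture 3 or 4 (up to 0.0192). Cth lost it without untreated culture 3 or 4 or treated culture 1 (up to 0.0172), Mthfd2 without culture 2 of either group (up to 0.0109), Slc38a2 without untreated culture 2 or treated culture 3 (up to 0.0115), Eprs without treated culture 2 (0.0109), and Sars without treated culture 1 (0.0108). In ΔIEC organoids Gars and Sars lost it without any 1 culture but treated culture 1 or 2 (up to 0.0257 and 0.0349), Slc7a1 without untreated culture 2, 3 or 4 (up to 0.0149), Shmt2 without untreated culture 3 or treated culture 2 (up to 0.0103), and Sesn2 and Slc38a2 without untreated culture 1 (0.0129 each).

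Genes elsewhere in the pathway were taken from lists written from general knowledge. Of 11 other ATF4 and CHOP targets that could be tested, 6 rose in fl/fl and 3 in ΔIEC organoids. Nupr1, a stress-induced chromatin protein, was the most changed of them at 1.21 ± 0.21 and 1.51 ± 0.25, with Jdp2 next in fl/fl (0.93 ± 0.24) and Adm2 in ΔIEC organoids (1.14 ± 0.15). Of 13 eIF2 kinases and eIF2 machinery genes, 3 and 4 rose, led by Eif2s2, a subunit of eIF2, in fl/fl (0.65 ± 0.099) and by Eif2ak2, the kinase PKR that senses double-stranded RNA, in ΔIEC organoids (0.54 ± 0.094). Of 14 genes of the ATF6 and XBP1 arms of the unfolded protein response, 5 and 8 rose, with Xbp1 at 1.32 ± 0.085 and 1.22 ± 0.085 and its companion Creld2 at 0.66 ± 0.13 and 0.69 ± 0.12.

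**Figure D4:**
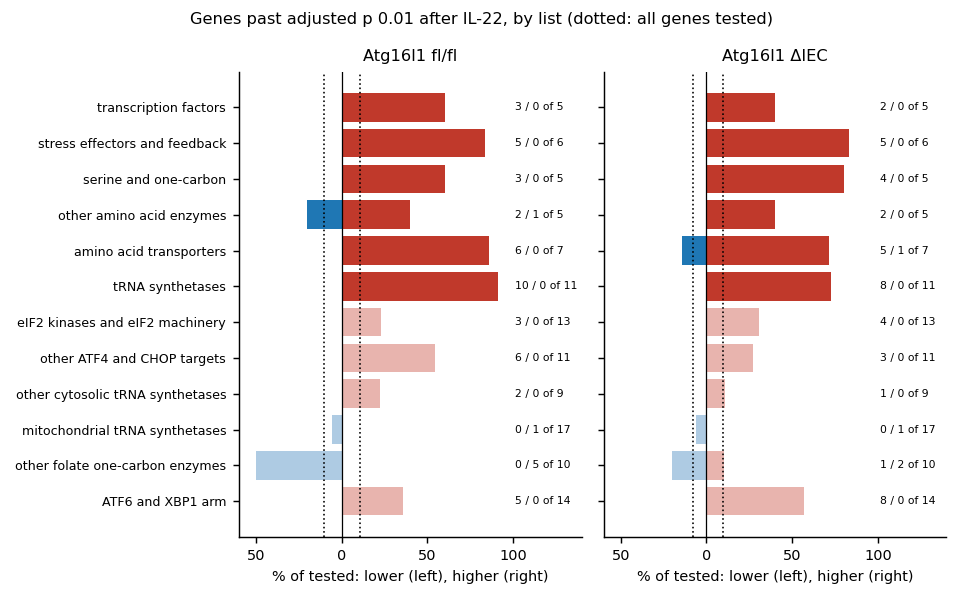
Share of the tested genes of each list that were higher (bars to the right, red) or lower (bars to the left, blue) after IL-22 past an adjusted p of 0.01, in Atg16l1 fl/fl (left panel) and ΔIEC organoids (right panel). Full colours are the 6 role groups of the 39 genes and pale colours other lists, the numbers give higher and lower of tested genes, and dotted lines mark all tested genes (10.6% and 10.2%, and 9.83% and 7.65%). The listed tRNA synthetases reach 10 of 11 and 8 of 11 higher, and the other cytosolic synthetases 2 of 9 and 1 of 9.

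Genes rose both with and without the response element in the promoter window. Of the 12 genes with it, 10 rose in fl/fl and 8 in ΔIEC organoids, with medians of 0.48 and 0.44. Of the 19 with a window and no match, 12 rose in each genotype, with medians of 0.36 and 0.38. The difference between these groups of genes was not tested.

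Between the genotypes, fewer of these genes passed the threshold, and Atf4 was not among them. In untreated organoids 3 of the 39 genes were higher in ΔIEC and 4 lower (17.9% of the genes), where 3.78% of all tested genes were higher and 5.98% lower (9.76% in all), and the median was -0.093 against -0.020 over all tested genes. With IL-22, 4 were higher and 7 lower (28.2% of the genes), where 9.91% and 9.84% of all tested genes were (19.8% in all), and the median was -0.12 against 0.0072. With IL-22 the share higher, 10.3% of the 39 genes, is near that of all tested genes. Both comparisons share cultures with the IL-22 effects above. Atf4 differed by -0.087 ± 0.063 untreated and -0.024 ± 0.062 with IL-22, and its fl/fl and ΔIEC cultures overlapped in both.

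**Figure D5:**
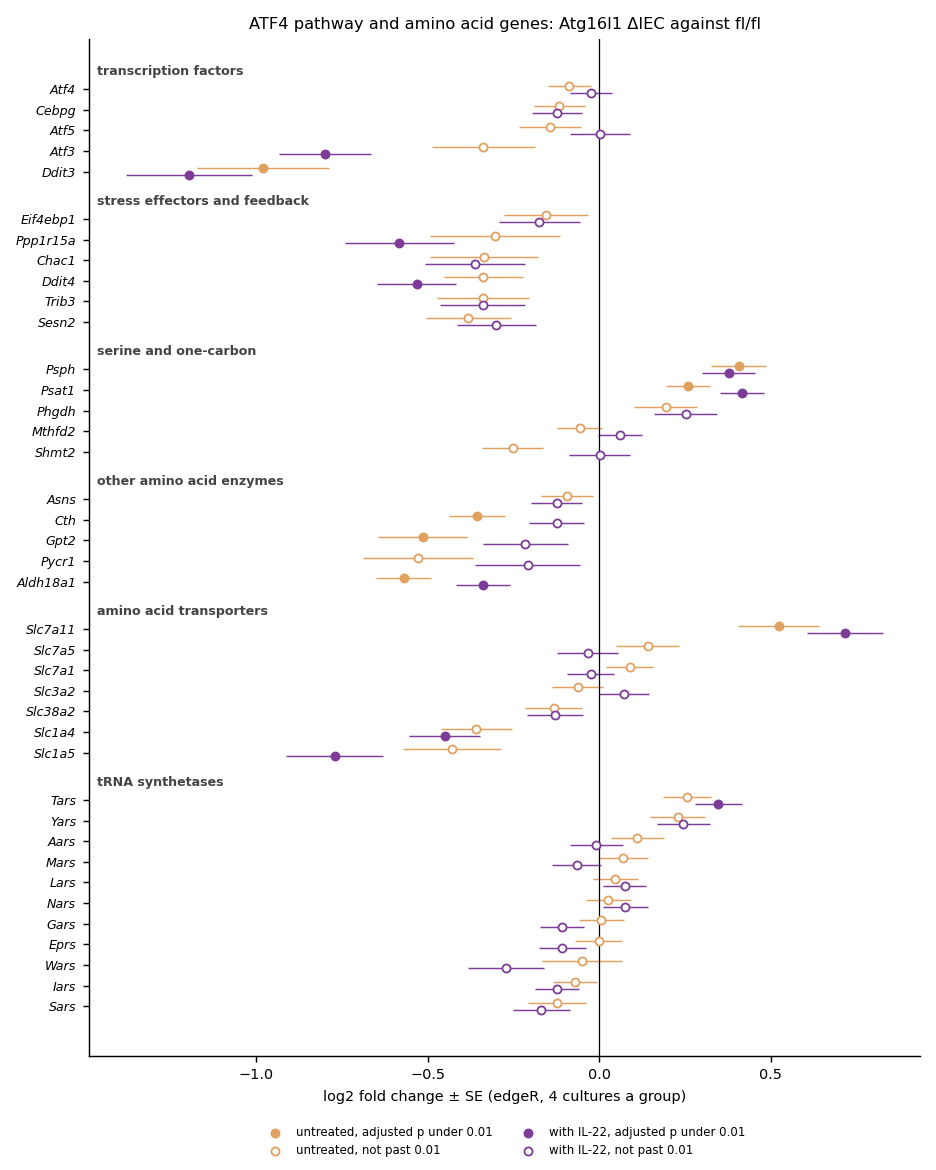
Log2 fold change of Atg16l1 ΔIEC over fl/fl organoids for the 39 genes, untreated (orange) and with IL-22 (purple), with bars of 1 SE from edgeR (4 cultures a group). Filled points passed an adjusted p of 0.01. Ddit3 lies farthest left at -0.98 and -1.19, Slc7a11 farthest right at 0.52 and 0.72, and the tRNA synthetases gather around 0.

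Ddit3 was the gene most reduced in ΔIEC organoids. The ΔIEC cultures had 23.3 to 32.5 CPM untreated and 23.5 to 52.6 CPM with IL-22, all below the fl/fl cultures of the same treatment, at 40.3 to 62.5 and 74.3 to 78.0 CPM. The log2 fold change was -0.98 ± 0.19, adjusted p = 0.0016, untreated and -1.19 ± 0.18, adjusted p = 8.52e-05, with IL-22, so that ΔIEC organoids held 1.97-fold and 2.29-fold less of the CHOP transcript. Without the third treated ΔIEC culture the second value was -1.52, and without the first it was -1.08, both past the threshold. Ddit3 shares 68 exon bases (3.97%) with Mars on the other strand, and Mars did not differ between the genotypes past the threshold (0.07 ± 0.072 and -0.066 ± 0.072). It also shares 105 exon bases (6.13%) with another annotated entry named Ddit3 on the same strand, which has no counts here. The part of these overlaps in the Ddit3 difference was not tested.

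With IL-22 the ΔIEC organoids also had less Atf3 (-0.80 ± 0.13, adjusted p = 0.000196), with 23.7 to 33.8 CPM against 44.2 to 52.1 CPM in fl/fl cultures and no overlap. Ddit4 was lower with no overlap as well (-0.53 ± 0.11, adjusted p = 0.00163), at 316 to 512 against 552 to 643 CPM, and had -0.43 without the first and -0.66 without the third ΔIEC culture, both past the threshold. Ppp1r15a was lower (-0.58 ± 0.16, adjusted p = 0.00832) although the groups overlapped, since the third ΔIEC culture reached 62.9 CPM, and without the first ΔIEC culture it was -0.47 with an adjusted p of 0.0284. Trib3, Chac1, Sesn2 and Eif4ebp1 differed by -0.34, -0.36, -0.30 and -0.17 and did not pass. All 6 stress effectors had negative values in both comparisons, where 47.7% of all tested genes had positive values untreated and 50.6% with IL-22. Of the 6, 0 passed the threshold untreated and 2 with IL-22, and both comparisons rest on the same lines.

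The amino acid genes split in both directions. Slc7a11 was higher in ΔIEC organoids at 0.52 ± 0.12, adjusted p = 0.00419, untreated and 0.72 ± 0.11, adjusted p = 8.38e-05, with IL-22, and all ΔIEC cultures lay above all fl/fl cultures of the same treatment. Psat1 (0.26 ± 0.065, adjusted p = 0.00822, and 0.42 ± 0.064, adjusted p = 8.88e-05) and Psph (0.41 ± 0.081, adjusted p = 0.00181, and 0.38 ± 0.076, adjusted p = 0.000999) were higher without overlap too, as was Tars with IL-22 (0.35 ± 0.069, adjusted p = 0.000839). Aldh18a1 was lower at -0.57 ± 0.08, adjusted p = 8.15e-05, untreated and -0.34 ± 0.08, adjusted p = 0.00305, with IL-22, with no overlap in either. Gpt2 (-0.51 ± 0.13, adjusted p = 0.00851) and Cth (-0.36 ± 0.081, adjusted p = 0.0042) were lower in untreated ΔIEC organoids and not past the threshold with IL-22 (-0.22 ± 0.12 and -0.12 ± 0.08). Slc1a5 (-0.77 ± 0.14, adjusted p = 0.000424) and Slc1a4 (-0.45 ± 0.10, adjusted p = 0.00276) were lower with IL-22, at 224 to 334 against 351 to 551 CPM and at 72.1 to 104 against 117 to 136 CPM.

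Of the genotype calls, 7 in untreated organoids and 11 with IL-22, each was lost under at least 1 alternative. With each line's cultures summed all 18 were lost, with adjusted p-values from 0.0275 (Aldh18a1) to 0.172 (Psat1) in untreated organoids and from 0.0152 (Ddit3) to 0.0786 (Ppp1r15a) with IL-22. In limma-voom with correlation within lines, 3 untreated calls were lost, Slc7a11 (adjusted p = 0.0104), Psat1 (0.0184) and Gpt2 (0.0124), and all 11 with IL-22 were kept. Without 1 of the 4 lines, Aldh18a1 kept its untreated call, Ddit3 lost it without line 1293, Psph without 1290, 1292 or 1293, Slc7a11 without 1290, 1292 or 1294, Psat1 without 1290, 1292 or 1293, Gpt2 without 1290 or 1293 and Cth without 1292 or 1293. With IL-22, Atf3, Ddit3, Psat1 and Slc7a11 kept theirs without any 1 line, and Ddit4, Psph, Slc1a4 and Tars lost theirs without 1290 or 1294, Slc1a5 without 1290, Aldh18a1 without 1292 or 1294 and Ppp1r15a without 1290, 1293 or 1294.

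In untreated organoids Ddit3, Aldh18a1 and Psph kept the genotype call without any 1 culture. Slc7a11 lost it without ΔIEC culture 2, 3 or 4 or fl/fl culture 3 or 4 (adjusted p of 0.0115 to 0.0167), and Psat1 without any 1 culture but fl/fl culture 4 (up to 0.0352). Cth lost it without ΔIEC culture 3 or 4 or fl/fl culture 1 or 2 (up to 0.023), and Gpt2 without ΔIEC culture 1, 2 or 3 or fl/fl culture 1 or 2 (up to 0.04). With IL-22, 8 of the 11 calls held without any 1 culture. Aldh18a1 lost its call without ΔIEC culture 1 or 4 or fl/fl culture 4 (adjusted p of 0.0101 to 0.0155), Slc1a4 without ΔIEC culture 2 or fl/fl culture 1 (0.0102), and Ppp1r15a without any 1 culture but ΔIEC culture 3 and fl/fl culture 4 (up to 0.0332). Phgdh, at 0.25 ± 0.092 with an adjusted p of 0.0409, passed without ΔIEC culture 1 (0.33, adjusted p = 0.00606).

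Cell type markers differed between the genotypes as well: summed Paneth cell markers ranged from 4410 to 6590 CPM in untreated fl/fl and from 2480 to 3300 CPM in untreated ΔIEC cultures, with 2 of 5 markers lower, and from 5790 to 7710 and 3100 to 3780 CPM with IL-22, with 4 of 5 lower. Of 4 enteroendocrine markers 1 was lower in untreated ΔIEC organoids and 2 with IL-22, with medians of -0.81 and -0.83 and no positive value. Goblet cell markers were lower for 3 and 4 of 6, while stem cell markers were higher for 3 of 5 in each, with 1 lower with IL-22, and proliferation markers for 1 and 5 of 6. Their part in the genotype differences was not tested.

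Other lists of the pathway were compared in the same way. Of the 11 other ATF4 and CHOP targets, 4 passed the threshold in untreated organoids and 7 with IL-22, all lower in ΔIEC. Nupr1 had 44.1, 55.4, 26.7 and 32.6 CPM in untreated fl/fl and 14.6, 15.99, 19.7 and 22.8 CPM in untreated ΔIEC cultures (-1.18 ± 0.25, adjusted p = 0.00262), and the glycine carrier Slc6a9 had the largest difference with IL-22 (-1.03 ± 0.14, adjusted p = 1.92e-05), at 55.8 to 81.5 against 23.5 to 40.8 CPM. The ATF6 and XBP1 list had 4 higher and 1 lower untreated and 8 higher and 1 lower with IL-22, and Creld2 had 18.4, 19.9, 26.7 and 20.9 CPM in untreated fl/fl and 38.4, 41.1, 40.2 and 44.9 CPM in untreated ΔIEC cultures (0.95 ± 0.13, adjusted p = 7.08e-05). Among eIF2 genes, Eif2b4 was higher in untreated ΔIEC organoids (0.44 ± 0.089), and with IL-22 5 were higher, led by Eif2b1 (0.65 ± 0.12), and Eif2s2 was lower (-0.53 ± 0.099). Folate enzymes were higher for 2 of 10 untreated and 7 of 10 with IL-22, with Tyms at 1.08 ± 0.16 and 1.45 ± 0.17. Of the synthetases, Hars (0.51 ± 0.11 and 0.57 ± 0.10) was higher and the mitochondrial Vars2 (-0.90 ± 0.12 and -0.97 ± 0.12) lower in both.

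No gene of the 39 showed an IL-22 effect that differed between the genotypes past an adjusted p of 0.01 in edgeR, where 0.0159% of all tested genes did (0.00796% in each direction). At an unadjusted p under 0.05 there was 1 gene of the 39, Atf3, where 7.26% of all tested genes were under it. With the line as a block there were 7 at that level, where 13.2% of all tested genes were, and still 0 after adjustment, the lowest adjusted p being 0.107 for Slc1a5 (-0.34 ± 0.11), and limma-voom gave 0 and 6, where 11.0% of all tested genes were at that level. DESeq2 gave 0 after adjustment over the 32 genes for which it returned an adjusted p, and 1 before it, where 3.07% of its genes were. The differences ranged from -0.46 (Atf3) to 0.32 (Pycr1).

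Levels between genes can be compared only per length, as CPM per kilobase of exon, with all annotated exons of a gene merged. In untreated fl/fl organoids Ddit4 stood highest at 284 ± 12.2 (SD, n = 4) and Atf4 next at 173 ± 11.0, and neither range overlapped the next gene's. Nars (141 ± 5.79), Gars (127 ± 4.54), Asns (123 ± 12.6) and Aldh18a1 (116 ± 4.08) followed, of which Gars, Asns and Aldh18a1 did not differ from their neighbour beyond the range of the cultures. At the low end stood Pycr1 (10.5 ± 1.92), Ppp1r15a (9.37 ± 1.33) and Slc7a11 (4.63 ± 0.88). Over all 16 cultures Slc7a11 ranged from 3.82 to 17.0 and Atf4 from 158 to 264 CPM per kilobase. Of the 39 genes, the one with the largest IL-22 effect in ΔIEC organoids thus had the lowest level per kilobase in untreated fl/fl organoids. That place depends on the merged exon length, which was 13922 bases for Slc7a11 and 2937 for Ppp1r15a.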

How the data were processed

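The deposited values are read counts per gene, whole numbers without normalization, in 16 cultures; the authors trimmed paired-end reads with cutadapt, aligned them to GRCm38 (mm10) with TopHat2 and counted them with HTSeq, per the labels. The strand setting and annotation release are not given in the sources used here. Reads in no gene (38.0% to 40.1%), ambiguous (0.74% to 1.13%) or aligned to several places (21.5% to 24.2%) stayed out of library sizes and tests, which leaves the counts on genes as the depth. Symbols came from GENCODE M21, which matched 99.5% of identifiers.

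Groups came from the labels. In R 4.3.3, edgeR 4.0.16 kept 12559 genes by its filter on low counts, scaled libraries by TMM and ran two-sided quasi-likelihood tests with 1 mean per group; the Benjamini-Hochberg correction covered the whole table, with a threshold of 0.01. SE came from the size of the log2 fold change over √F, and log2 CPM used a prior count of 2. CPM were scaled by TMM. Steps were tested on simulated counts with a true log2 fold change of 1 for the IL-22 effect in ΔIEC organoids. The simulation held no line effects, so it does not cover differences between lines or the genotype comparisons. Alternatives were DESeq2 1.42.0, limma-voom (limma 3.58.1) with correlation within lines, RLE scaling, other filters, the compared groups alone, lines summed, line as a block, a threshold of 0.05, and each culture or line left out.

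The 39 genes, the gene lists and the tests were chosen with earlier results of these data known. Values per culture are given for up to 6 genes with the largest change past the threshold in each direction of a comparison, and for Atf4, Ddit3, Asns, Trib3, Psat1, Phgdh and Slc7a11; other lists are given by counts and up to 2 genes a comparison. Some genes of those lists are not reported here. Further pathway genes outside this rule are named where a count is small. Lines carry the animal numbers of the labels, so treated and untreated cultures of a line are paired: deviations from group means correlated at 0.26 to 0.44 within fl/fl lines and 0.056 to 0.32 within ΔIEC lines, and at -0.43 to -0.22 and -0.35 to -0.078 between lines. Deviations within a group cancel out, so positive values within lines bring negative ones between lines, which add no further evidence. Lines are nested in genotype, so line as a fixed block could not be fitted for genotype; limma-voom modelled lines there as a correlation (0.261).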

Additional observations from a re-analysis of the deposited data

Results flagged for a closer look

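In 5 of the 156 sets of 4 cultures examined (39 genes in 4 groups), 1 culture lay far from the other 3, with a gap to its nearest neighbour that took more of the whole range than Dixon's critical value for 4 values allows. Chance does this in about 1 of 20 such sets, and 5 of 156 is under that rate. Cebpg had 108 CPM in the second untreated ΔIEC culture and 114 to 115 CPM in the others. Phgdh had 168 CPM in the third untreated fl/fl culture against 191 to 193 CPM. Psph had 76.2 CPM in the first untreated ΔIEC culture against 74.1 to 74.4 CPM, and Slc3a2 had 161 CPM in the third against 151 to 152 CPM. Nars had 799 CPM in the second IL-22–treated fl/fl culture against 856 to 864 CPM.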

How the results depend on the processing

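RLE scaling, DESeq2 and a minimum of 10 counts in every culture left each count of genes past the threshold within 1.5 times its value. With each line's cultures added together, 10 were higher in fl/fl and 9 in ΔIEC organoids after IL-22 and 0 in each other count. This leaves 2 samples a group. Of all 13871 genes tested so, 356 were higher in fl/fl and 385 in ΔIEC organoids after IL-22. Between the genotypes, 3 of them were higher and 7 lower in untreated ΔIEC organoids, and 56 higher and 132 lower with IL-22. Of genes lower after IL-22 in fl/fl organoids, limma-voom, the replicate block and a threshold of 0.05 each gave 2, and the compared groups alone gave 0 lower in ΔIEC organoids. For untreated ΔIEC against fl/fl, limma-voom gave 1 higher, the threshold of 0.05 gave 5 higher and 9 lower, and no filter on low counts gave 7 lower. The cause was not tested.

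With 1 culture or 1 line left out, genes higher after IL-22 numbered 17 to 27 in fl/fl and 11 to 27 in ΔIEC organoids and genes lower 0 to 1 in each. The lowest values came without line 1294 (17, and 590 of all 12785 tested genes) and without line 1292 (11, and 495 of all 12937). Without line 1290 it was 17, and 708 of all 12876. Untreated genotype counts were 0 to 2 higher and 2 to 6 lower, those with IL-22 2 to 5 higher and 3 to 9 lower, and the interaction stayed at 0. Without the first IL-22–treated ΔIEC culture, 27 were higher and 0 lower after IL-22, and 5 were higher and 5 lower than in fl/fl.

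Signs turned with a culture or line left out for Phgdh after IL-22 (-0.073 to 0.021 in fl/fl, -0.012 to 0.11 in ΔIEC), for Ddit3 in ΔIEC organoids (-0.24 to 0.56), and in the interaction for Ddit3 (-0.71 to 0.11), Slc7a11 (-0.024 to 0.33), Asns (-0.11 to 0.0090) and Trib3 (-0.31 to 0.26). None of these passed the threshold.

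Under every alternative 9 of 30 calls after IL-22 held in fl/fl (Atf4, Atf5, Ppp1r15a, Psph, Slc7a11, Slc7a5, Tars, Trib3, Wars) and 8 of 27 in ΔIEC organoids (Atf4, Atf5, Nars, Psph, Slc7a11, Slc7a5, Tars, Trib3), and 0 of 7 genotype calls untreated and 0 of 11 with IL-22. With organoid line as a replicate block, 30 rose and 2 fell in fl/fl and 27 rose and 1 fell in ΔIEC organoids: the block added Ddit3, Slc1a4 and Gpt2 and changed no other call. Each genotype had 2 lines and each gene at least 55 counts in every culture; which of these limits the calls was not tested.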
